A study of Homo sapiens with 6 samples.

Results

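RNA on arrays of HFL-1, a fibroblast cell line from human fetal lung, was read for 9 genes of retinoic acid signalling. They are the receptor gene GPRC5A, the nuclear receptor genes RARA, RARB, RARG and RXRA, the binding protein gene CRABP2, and the metabolic genes ALDH1A3, CYP26B1 and DHRS3. The genes were chosen by name when the result of this same comparison was already known, with GPRC5A selected on its difference between the groups. Their differences are therefore given as a description and support nothing further. All 9 were measured, among 15277 genes in all, and they are read by 32 probe sets that carry 1 gene symbol each. The study compared 3 arrays of fibroblasts infected with a lentivirus that carries full-length human HYAL1, a hyaluronidase, with 3 arrays of fibroblasts infected with the control vector CON335. Both groups received virus with polybrene in a transient infection, and no uninfected cells were analysed here. No source used here states the time of harvest. The titles call the 3 arrays of each group biological replicates, but how the cultures were separated is not given in the sources used here. Every p-value therefore measures only the spread between these samples, which may be technical.

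The labels were checked on HYAL1 itself. Its log2 values were 4.81, 4.82 and 4.67 in the arrays labelled HYAL1 overexpression, against 7.48, 7.49 and 7.46 in the arrays labelled control. The gene that was introduced was thus lower in every array labelled for it, with a difference of -2.71 between the measured log2 values (two-sided p = 0.10 by an exact permutation test, which cannot go lower with 3 arrays a side). The array carries 9 background probe sets, which match no human transcript and had medians of 6.69 to 6.90 over the 6 arrays. The HYAL1-labelled values of HYAL1 were under these medians, so no fold change of the RNA is read from that difference. A supplementary table of the study heads the same arrays the opposite way. All directions below follow the deposited labels, as HYAL1-labelled minus control-labelled arrays, and each turns round if the labels were exchanged. The 6 arrays had medians of 6.97 to 7.01 and, taken over probe sets (which are no independent replicates), r between arrays of a group was 0.998 to 0.999.

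Retinoic acid is made from vitamin A inside cells. Retinol dehydrogenases turn retinol into retinal, ALDH1A enzymes oxidise retinal to retinoic acid, and CYP26 enzymes break retinoic acid down, while DHRS3 reduces retinal back to retinol. CRABP2 carries retinoic acid to the nucleus, where the receptors RARA, RARB and RARG, each paired with a retinoid X receptor such as RXRA, bind DNA at direct repeats of a short half-site and switch target genes on. In the lung the pathway is known for its part in forming airways and alveoli. GPRC5A is an orphan G protein-coupled receptor that was found as a gene induced by retinoic acid and is abundant in lung epithelium. RARB, CRABP2, DHRS3 and the CYP26 genes are known targets of the pathway as well as parts of it.

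The DNA that a retinoic acid receptor recognises can be shown for RARB, whose promoter holds the best known response element of the pathway. RefSeq promoter windows of build GRCh38.p14, from 250 bases before to 50 bases after a transcript start, were found for 8 of the 9 genes (16 windows). GPRC5A had none. The windows were searched on both strands for the half-site AGGTCA and for its variants GGGTCA or AGTTCA or GGTTCA, alone and as direct repeats with 1, 2 or 5 bases between them. A direct repeat with 5 bases between stood in 1 of the 16 windows, that of RARB at chr3:25428013-25428312, and no window held a repeat with 1 or 2 bases between. Among 35116 windows of all genes, 0.0883% held the repeat with 5 bases between, 0.131% that with 1 base and 0.0399% that with 2 bases. The RARB repeat runs on the strand of the gene from 53 to 37 bases before the start. It is shown first, with 20 bases on either side and the half-sites in capitals, because it is the element that receptor and ligand act through. The other stretches are the single half-sites of DHRS3 and CRABP2, also in capitals, shown because both genes are known targets of the receptors, and DHRS3 is 1 of the genes that passed the test below. Single half-sites are common, with at least 1 in 38.6% of all windows and in 8 of these 16. The only window of CYP26B1, also a known target, held none, and neither did a further window of DHRS3. Windows of RARA and RXRA did hold half-sites, so the stretches shown do not set the targets apart. A match is a run of letters and says nothing about binding in these cells.
RARB, chr3:25428190-25428246, plus strand: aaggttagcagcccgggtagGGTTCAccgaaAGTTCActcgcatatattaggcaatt
DHRS3, chr1:12616936-12616981, minus strand: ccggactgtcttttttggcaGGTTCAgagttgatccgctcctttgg
DHRS3, chr1:12596759-12596804, minus strand: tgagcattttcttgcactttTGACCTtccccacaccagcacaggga
CRABP2, chr1:156706008-156706034, minus strand: gGGTTCAatggagctagggccagctac
The DHRS3 half-site that reads TGACCT in the direction of the gene is AGGTCA on the opposite strand.

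Of the 9 genes, GPRC5A and DHRS3 were lower in the HYAL1-labelled arrays and passed limma's empirical Bayes test at an adjusted p under 0.05 over all 15277 genes. No member was called higher there. Over all genes 1.66% were called, 1.21% lower and 0.445% higher in the HYAL1-labelled arrays, and since the members were chosen with this comparison known, nothing is read from their count. The median difference of the 9 genes was 0.03, against 0.01 for all genes. The groups did not overlap for GPRC5A, DHRS3 and RXRA, 3 of the 9, where the same held for 24.4% of all genes.

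**Figure D1:**
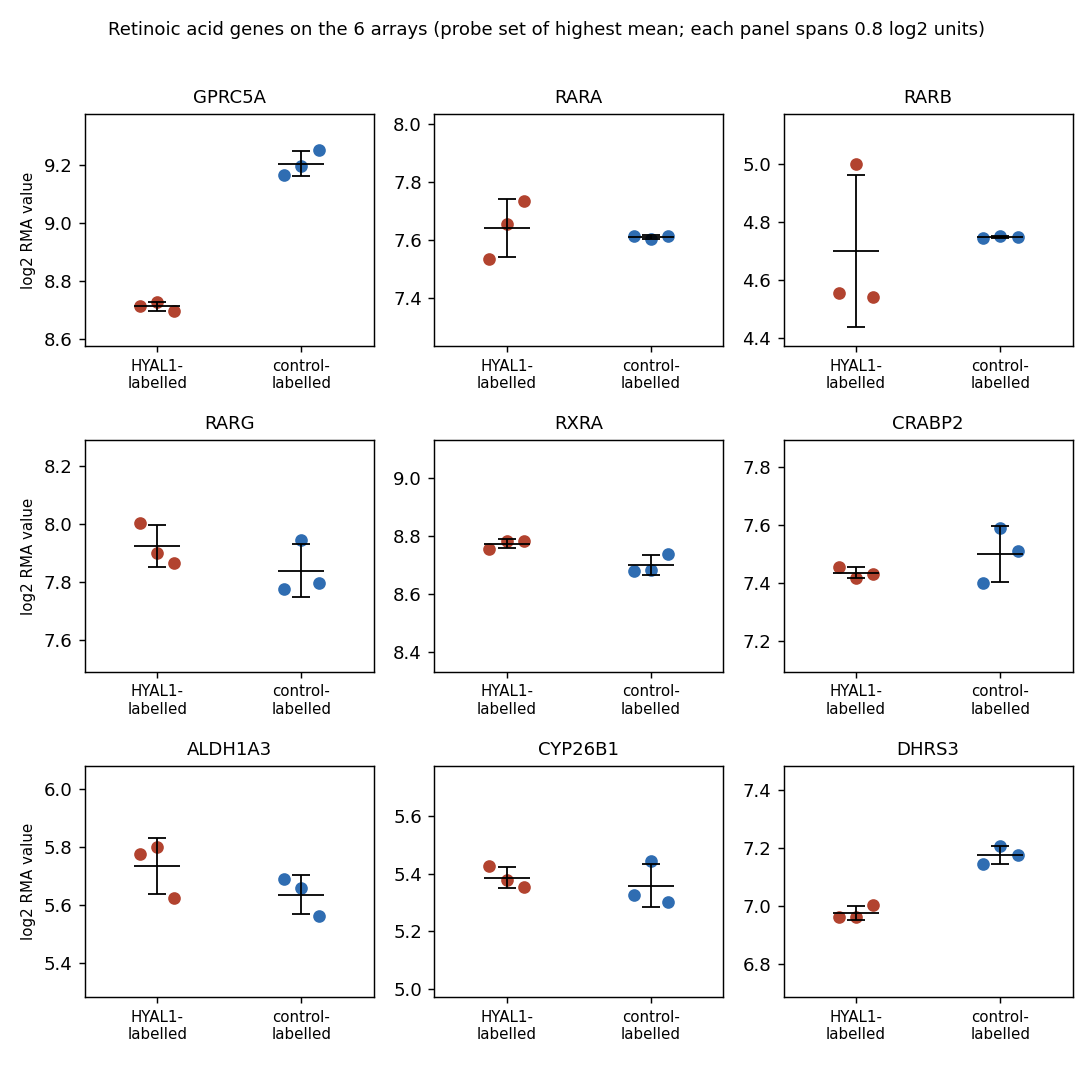
Log2 RMA value (vertical axis, each panel spanning 0.8 units) of the 9 genes on the 3 HYAL1-labelled arrays (left, red) and the 3 control-labelled arrays (right, blue), by the probe set of highest mean. Points are arrays, horizontal bars are means and whiskers are SD (n = 3). The groups stand clearly apart in GPRC5A and DHRS3, narrowly in RXRA, and overlap in the other 6 panels.

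GPRC5A had log2 values of 8.71, 8.73 and 8.70 in the HYAL1-labelled arrays, against 9.17, 9.20 and 9.25 in the control-labelled arrays. The 3 HYAL1-labelled arrays lay within 0.0316 of each other, and the nearest arrays of the groups were 0.438 apart. The HYAL1-labelled mean was 8.71 ± 0.0158 and the control-labelled mean 9.20 ± 0.0440 (SD, n = 3 each). The means differed by -0.49, with a standard error of 0.0344 and a limma adjusted p of 0.00374. This is a 1.41-fold lower level, with a 95% interval of 1.33-fold to 1.49-fold. Only 8 of the 15277 genes differed by more in either direction. The gene, at chr12:12891562-12917937 in GRCh38.p14, is read by another, dimmer probe set, which gave 7.34, 7.32 and 7.33 in the HYAL1-labelled arrays, against 7.77, 7.79 and 7.86 in the control-labelled arrays. Both probe sets thus gave nearly the same size, with a difference of -0.48 for the dimmer one, and both ranked the control-labelled arrays alike, with replicate 1 lowest and replicate 3 highest. They read the same RNA and are not independent of each other. GPRC5A lay between percentiles 76.5 and 83.3 of all probe sets. Without any 1 array its difference ran between -0.51 and -0.47 (adjusted p = 0.0247 to 0.0379), so that it passed in all 6 such fits. These fits reuse the arrays on whose difference GPRC5A was selected. Its interval, rank and passes therefore describe a selected difference and add no support.

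DHRS3, which reduces retinal to retinol and so holds back the supply of retinoic acid, had log2 values of 6.96, 6.96 and 7.01 in the HYAL1-labelled arrays, against 7.15, 7.21 and 7.18 in the control-labelled arrays. The groups did not overlap, and their nearest arrays were 0.141 apart. The HYAL1-labelled mean was 6.98 ± 0.0241 and the control-labelled mean 7.18 ± 0.0304 (SD, n = 3 each). They differed by -0.20, with a standard error of 0.0325 and a limma adjusted p of 0.0370. The measured level was 1.15-fold lower, with a 95% interval of 1.09-fold to 1.21-fold, and 473 genes differed by more. This probe set lay between percentiles 49.4 and 53.5 of all probe sets. It was above the background median on all 6 arrays, but not far above those medians of 6.69 to 6.90. The fold and its interval are therefore of the measured signal. DHRS3 is at chr1:12567910-12618210. Its other probe sets disagreed. One gave 4.96, 4.82 and 5.01 in the HYAL1-labelled arrays, against 5.20, 5.28 and 5.30 in the control-labelled arrays, and passed when all probe sets were tested (difference -0.33, adjusted p = 0.0421 from limma). The dimmest gave 4.78, 4.81 and 4.71 in the HYAL1-labelled arrays, against 4.74, 4.76 and 4.69 in the control-labelled arrays, so its groups overlapped (difference 0.04, adjusted p = 0.650). Both dimmer probe sets were designed on the same transcript record and lay on no array above the median of the background probe sets. DHRS3 missed the threshold in all 6 fits that left out 1 array (adjusted p = 0.0753 to 0.153). Its direction could not turn in them, since the groups did not overlap.

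None of the 4 nuclear receptor genes passed. RARA, the receptor gene best known from its fusion in promyelocytic leukaemia, had log2 values of 7.53, 7.66 and 7.73 in the HYAL1-labelled arrays, against 7.61, 7.60 and 7.61 in the control-labelled arrays. The control-labelled values fell inside the spread of the HYAL1-labelled ones. The difference was 0.03 (95% interval -0.09 to 0.15, adjusted p = 0.805), so that a change larger than 1.11-fold lies outside the interval. RARA is read by 10 probe sets, 6 with a higher and 4 with a lower mean in the HYAL1-labelled arrays, with differences of -0.09 to 0.11 and overlapping groups in each. Without HYAL1-labelled replicate 3 the difference of RARA turned to -0.01.

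RARG, the receptor of skin and cartilage, had log2 values of 8.00, 7.90 and 7.86 in the HYAL1-labelled arrays, against 7.78, 7.95 and 7.80 in the control-labelled arrays. The groups overlapped through control-labelled replicate 2. The difference was 0.08 (95% interval -0.05 to 0.22, adjusted p = 0.507), and the interval of this probe set reaches 1.16-fold. A dimmer probe set of RARG, above the background median on all 6 arrays, reached further (difference 0.13, 95% interval -0.02 to 0.29). All 5 RARG probe sets had a higher mean in the HYAL1-labelled arrays, by 0.08 to 0.22, but none passed. HYAL1-labelled replicate 1 was the highest of its group in all 5, and control-labelled replicate 1 the lowest of its group in 4. Without control-labelled replicate 2 the difference was 0.14 and without HYAL1-labelled replicate 1 it was 0.04.

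RXRA, the shared partner of the retinoic acid receptors, had log2 values of 8.75, 8.78 and 8.78 in the HYAL1-labelled arrays, against 8.68, 8.68 and 8.74 in the control-labelled arrays. Every HYAL1-labelled array lay above every control-labelled one, though the nearest were only 0.0159 apart. The difference was 0.07 (standard error 0.0322, 95% interval -0.00 to 0.15, adjusted p = 0.302), with at most 1.11-fold inside the interval. The dimmer probe set of RXRA also gave a difference of 0.07, with overlapping groups.

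RARB, the receptor gene whose promoter carries the element shown above, was at the low end of the arrays, between percentiles 7.96 and 15.9. It had log2 values of 4.56, 5.00 and 4.54 in the HYAL1-labelled arrays, against 4.75, 4.75 and 4.75 in the control-labelled arrays. HYAL1-labelled replicate 2 stood alone above all others, and the other 2 HYAL1-labelled arrays stood below. The difference was -0.05 (95% interval -0.32 to 0.22, adjusted p = 0.872), and it was -0.20 without HYAL1-labelled replicate 2, 0.02 without HYAL1-labelled replicate 1 and 0.03 without HYAL1-labelled replicate 3, so that its sign rests on single arrays. Of its 3 probe sets, the dimmest had groups that did not overlap, with 4.37, 4.29 and 4.43 in the HYAL1-labelled arrays, against 4.16, 4.20 and 4.23 in the control-labelled arrays. Its difference of 0.17 did not pass (adjusted p = 0.127). No probe set of RARB was above the background median on any array, so its interval sets no bound on a change of the RNA, and each of the 9 background probe sets had the higher mean in the HYAL1-labelled arrays, by differences of 0.0220 to 0.141. Their part in the values of RARB was not tested.

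CRABP2, which delivers retinoic acid to its receptors, had log2 values of 7.46, 7.42 and 7.43 in the HYAL1-labelled arrays, against 7.40, 7.59 and 7.51 in the control-labelled arrays. The HYAL1-labelled arrays lay close together, and control-labelled replicate 1 lay below them while the other 2 lay above. The difference was -0.06 (95% interval -0.18 to 0.05, adjusted p = 0.558), with at most 1.13-fold inside the interval of this probe set. All 3 probe sets of CRABP2 had a lower mean in the HYAL1-labelled arrays, by differences of -0.12 to -0.06, and control-labelled replicate 1 was the lowest of its group in each. The dimmest of them had groups that did not overlap, at 7.10, 6.93 and 7.13 in the HYAL1-labelled arrays, against 7.14, 7.19 and 7.20 in the control-labelled arrays, and did not pass (adjusted p = 0.312). Its 95% interval, -0.25 to 0.01, reached beyond that of the brightest probe set. Without control-labelled replicate 1 the difference of CRABP2 was -0.11, and without control-labelled replicate 2 it was -0.02.

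The enzymes on either side of retinoic acid were read at low levels. ALDH1A3, which makes retinoic acid from retinal, had log2 values of 5.78, 5.80 and 5.62 in the HYAL1-labelled arrays, against 5.69, 5.66 and 5.56 in the control-labelled arrays. The groups overlapped, and replicate 3 was the lowest array of both. The difference was 0.10 (95% interval -0.04 to 0.23, adjusted p = 0.435). A dimmer probe set of ALDH1A3 had groups that did not overlap, at 5.44, 5.49 and 5.36 in the HYAL1-labelled arrays, against 5.03, 5.30 and 5.31 in the control-labelled arrays (difference 0.22, adjusted p = 0.217), and the third ran the other way at -0.07. CYP26B1, which clears retinoic acid, is read by a single probe set, with 5.43, 5.38 and 5.35 in the HYAL1-labelled arrays, against 5.33, 5.44 and 5.30 in the control-labelled arrays. Its groups overlapped, and the difference was 0.03 (95% interval -0.08 to 0.13, adjusted p = 0.795). Neither gene was above the background median on any array, so these intervals set no bound on a change of their RNA.

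**Figure D2:**
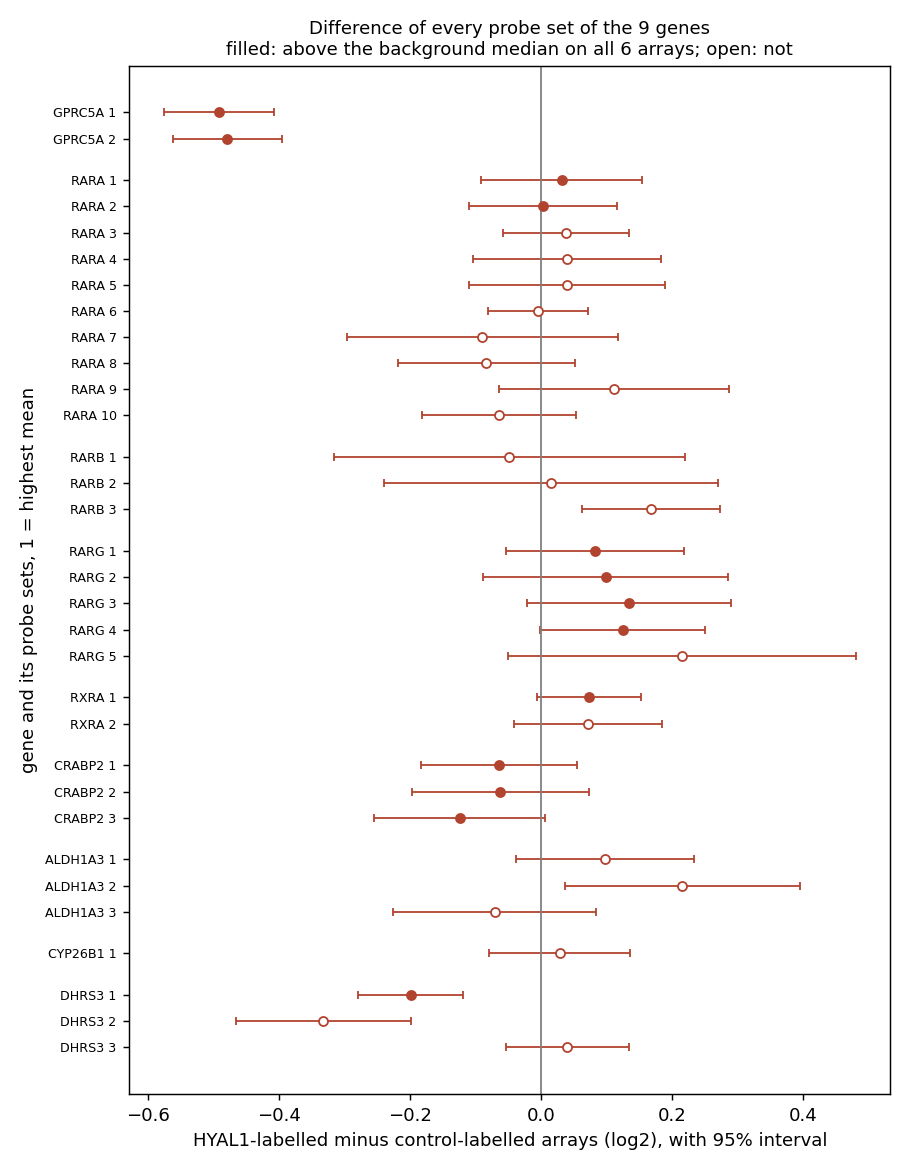
Difference between HYAL1-labelled and control-labelled arrays (horizontal axis, log2, with 95% interval) for each of the 32 probe sets of the 9 genes (vertical axis, numbered from the highest mean). Filled points were above the background median on all 6 arrays and open points were not. Both GPRC5A probe sets lie near -0.5, a pair of the DHRS3 probe sets lie below 0, and the intervals of most others include 0.

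Over the 32 probe sets, 4 passed when every probe set with 1 symbol was tested, the pair of GPRC5A and the brighter pair of DHRS3, where 1.53% of all such probe sets passed. The groups did not overlap in 8 of the 32, a share close to the 24.1% of all such probe sets. The 7 genes that did not pass had differences of -0.06 to 0.10 and adjusted p-values of 0.302 to 0.872.

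**Figure D3:**
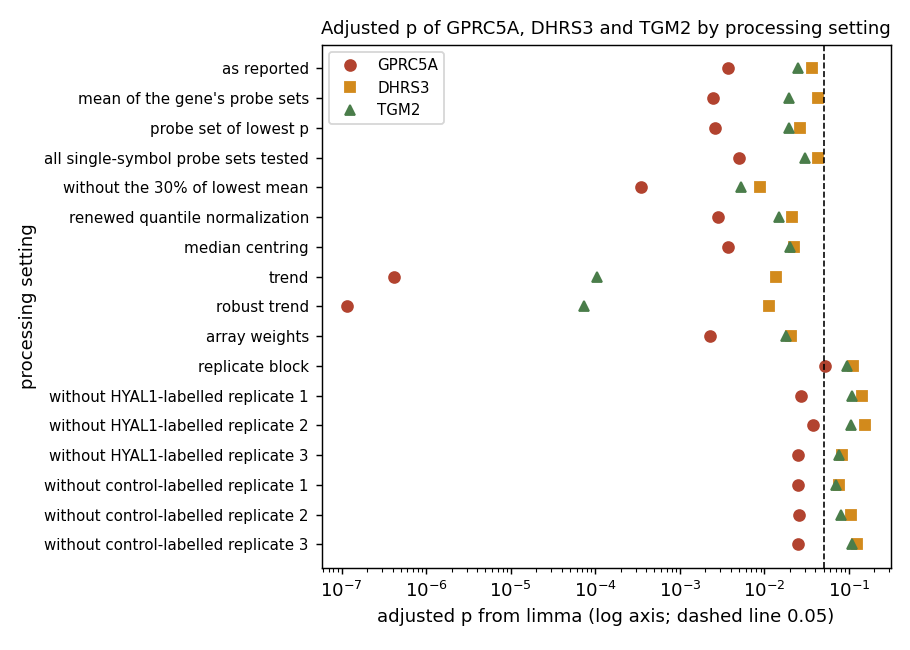
Adjusted p from limma (horizontal log axis, dashed line at 0.05) of GPRC5A, DHRS3 and TGM2 under each processing setting (vertical axis). GPRC5A lies left of the line in every setting except the replicate block, at 0.0527, while DHRS3 and TGM2 lie right of it in each fit that leaves out 1 array.

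Of the other genes of retinoid handling and response, listed by role, 42 of 61 listed symbols were measured, with 1 gene listed under an old and a new symbol. TGM2, transglutaminase 2, an enzyme that cross-links proteins and is induced by retinoic acid in several cell types, was the only one to pass. It had log2 values of 9.58, 9.63 and 9.63 in the HYAL1-labelled arrays, against 9.82, 9.83 and 9.87 in the control-labelled arrays. The groups did not overlap, and their means differed by -0.23, with a standard error of 0.0328 and a limma adjusted p of 0.0247. TGM2 missed the threshold in all 6 fits that left out 1 array (adjusted p = 0.0711 to 0.109). At an unadjusted p under 0.05, 4 of the 42 were lower and 8 higher in the HYAL1-labelled arrays, where 7.72% of all genes were lower and 9.69% higher at that level. The list was drawn up with results known, and nothing is read from these counts. Its median difference was 0.02, against 0.01 for all genes.

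By role, none of the 6 measured genes of retinol uptake, transport and storage passed. TTR, the carrier of retinol-binding protein in plasma, differed by 0.16 (adjusted p = 0.139) and RBP4, that binding protein, by 0.07 (adjusted p = 0.400), both at low levels. None of 9 oxidoreductases passed. RDH10, the main enzyme that makes retinal from retinol in the embryo, had 9.95, 9.93 and 9.95 in the HYAL1-labelled arrays, against 10.19, 10.00 and 10.19 in the control-labelled arrays. Its groups did not overlap, and the difference of -0.19 had an adjusted p of 0.146. RDH10 did pass with its probe sets averaged (adjusted p = 0.0334) and when limma's prior variance was fitted as a trend on level (0.00909). It missed the threshold in all 6 fits that left out 1 array (adjusted p = 0.0508 to 0.318) and with the replicate block (0.167). ADH5, a broadly expressed alcohol dehydrogenase, differed by 0.06 (adjusted p = 0.353). ALDH8A1, an enzyme of retinal oxidation, differed by -0.13 (adjusted p = 0.347) and CYP26C1, a relative of CYP26B1, by -0.01 (adjusted p = 0.953), both at low levels.

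FABP5, which can carry retinoic acid to another nuclear receptor, PPARD, had log2 values of 6.88, 6.97 and 7.01 in the HYAL1-labelled arrays, against 6.76, 6.68 and 6.79 in the control-labelled arrays. All HYAL1-labelled arrays were above all control-labelled ones. The difference of 0.21 did not pass (standard error 0.0465, adjusted p = 0.0779), but it did with the trended prior variance (0.0237) and without the 30% of genes of lowest mean (0.0261). FABP5 missed the threshold in all 6 fits that left out 1 array (adjusted p = 0.117 to 0.237) and with the replicate block (0.135). FABP5 was read near the background medians and was above the background median on only 4 arrays. The background probe sets also had higher means in the HYAL1-labelled arrays, by differences of 0.022 to 0.141. Their part in the difference of FABP5 was not tested. Among 4 other nuclear receptor genes, NR2F1, a COUP-TF factor that can compete for the same DNA, differed by 0.09 (adjusted p = 0.188). RXRB, a second partner receptor, differed by 0.10 (adjusted p = 0.364), and its direction turned to -0.02 when its probe sets were averaged and to -0.29 (adjusted p = 0.179) by its probe set of lowest p. None of 8 coregulators passed, with differences of -0.05 to 0.07. TBL1XR1, of the corepressor complex, and MED1, of the mediator complex, stood at 0.07 and 0.06 (adjusted p = 0.305 and 0.346). Among 12 genes that respond to retinoic acid, TGM2 aside, RAI14, an actin-associated protein, differed by -0.10 (adjusted p = 0.149) and STRA8, a germ cell gene read at a low level here, by 0.15 (adjusted p = 0.201). RAI14 passed with the trended prior variance (0.0133) but in no fit that left out 1 array (adjusted p = 0.210 to 0.350). Of the 12 genes, 4 had a lower and 8 a higher mean in the HYAL1-labelled arrays, with a median difference of 0.06. Only 6 of them were above the background median on all arrays.

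**Figure D4:**
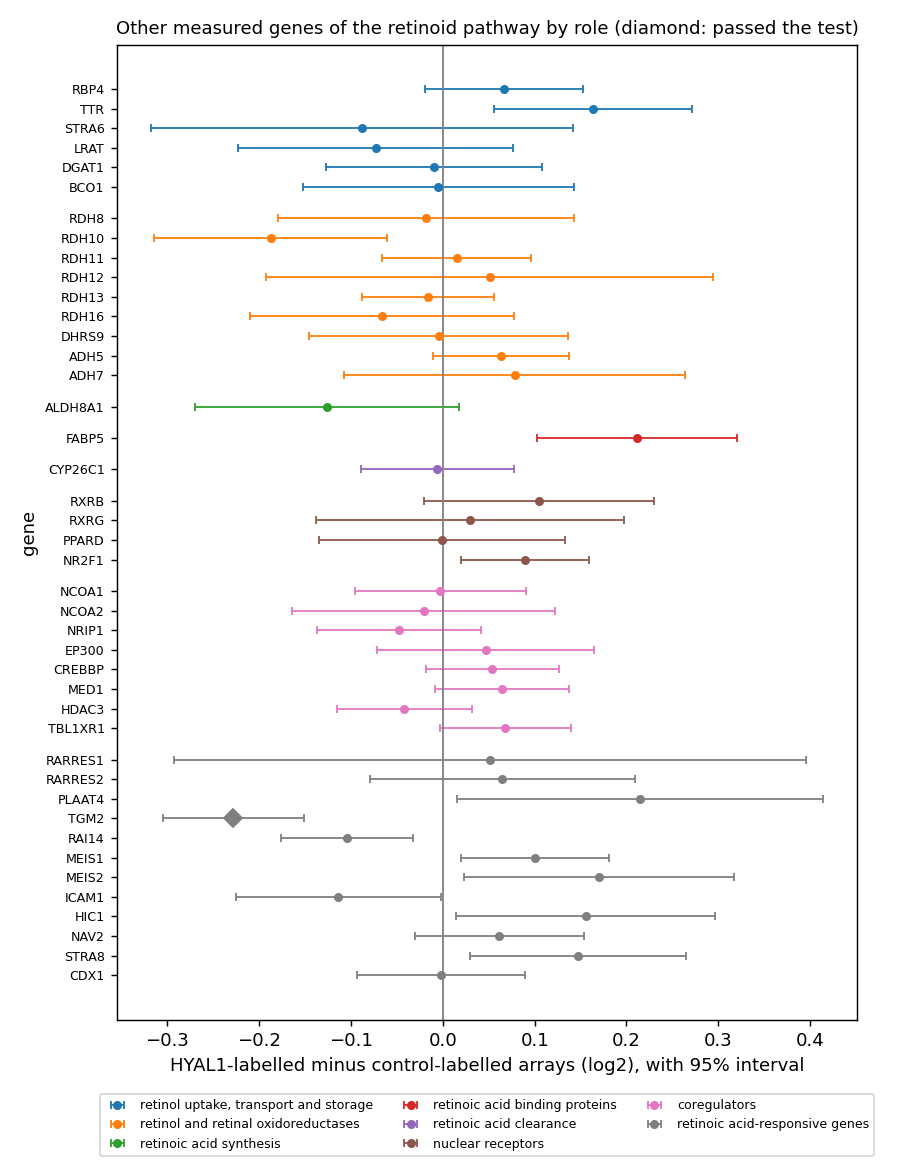
Difference between HYAL1-labelled and control-labelled arrays (horizontal axis, log2, with 95% interval) for the 42 other measured genes of the retinoid pathway (vertical axis), coloured by role. The diamond is TGM2, the gene that passed, at -0.23, and the other differences run between -0.19 and 0.21.

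None of the 3 measured paralogs of GPRC5A passed the test. GPRC5B, an orphan receptor of the same family, had log2 values of 6.55, 6.59 and 6.55 in the HYAL1-labelled arrays, against 6.45, 6.50 and 6.51 in the control-labelled arrays. Its difference of 0.08 (adjusted p = 0.279) turned to -0.05 with its probe sets averaged. GPRC5C differed by 0.14 (adjusted p = 0.360) and GPRC5D by -0.03 (adjusted p = 0.868). All 3 lay below the background median on every array. The difference between GPRC5A and its paralogs was not tested.

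The genes whose pattern over the 6 arrays was most like that of GPRC5A were found by the root mean square difference between their deviations from their own means. They were GALNT15, which starts mucin-type O-glycans, at 0.0225, SYNPO2, an actin-binding protein, at 0.0314, GSG1 at 0.0334, P3H2, a collagen prolyl hydroxylase, at 0.0339 and SULF1, a heparan sulfate sulfatase, at 0.0421. GALNT15 had 6.32, 6.30 and 6.31 in the HYAL1-labelled arrays, against 6.77, 6.79 and 6.90 in the control-labelled arrays, which also puts control-labelled replicate 3 highest. Over so few arrays this measure mostly finds genes with a group difference of like size. GALNT15 was above the background median on only 2 arrays and GSG1 on 3, and the HYAL1-labelled values of both lay under these medians. SYNPO2, P3H2 and SULF1 were above the background median on all 6 arrays. Among the members DHRS3 was nearest to GPRC5A at 0.150, and the others lay at 0.220 to 0.305.

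The cell type of the label was checked on markers. All 12 fibroblast markers were above the background median on all arrays. Of 8 measured epithelial markers, which bear on GPRC5A, KRT19, CLDN4 and MUC1 were above it on all arrays. SFTPC was above it on 1 array, and KRT5, KRT14, SFTPB and NKX2-1 on none. None of the 8 passed the test, and 6 had a higher and 2 a lower mean in the HYAL1-labelled arrays. Only CLDN4 had groups that did not overlap, higher in the HYAL1-labelled arrays by 0.11 (adjusted p = 0.209). The summed log2 level of the 8 ran from 54.8 to 55.0 in the HYAL1-labelled arrays, against 54.2 to 55.1 in the control-labelled arrays, so the groups overlapped. Of 5 measured endothelial markers, TEK was above the background median on all arrays and the other 4 on none. Of 2 measured leukocyte markers, CD68 was above it on all arrays and CD3E on none. No endothelial or leukocyte marker passed. Of 4 smooth muscle markers, CNN1 passed at -0.38 (adjusted p = 0.0276 from limma). ACTA2, the brightest, did not pass at -0.24, with groups that did not overlap (adjusted p = 0.0764 from limma). MYH11 ran the other way, at 0.19 with groups that did not overlap (adjusted p = 0.124). MYH11 and DES were on no array above the background median. The summed level of the 4 was 33.3 to 33.4 in the HYAL1-labelled arrays, against 33.7 to 33.9 in the control-labelled arrays. The fibroblast sum was 140.2 to 140.5 in the HYAL1-labelled arrays, against 140.9 to 141.4 in the control-labelled arrays, and COL1A1 passed at -0.27 (adjusted p = 0.0152). Of the 12 fibroblast markers, 9 had a lower mean in the HYAL1-labelled arrays and 3 a higher one. PDGFRA at 0.07 and S100A4 at 0.06 were higher there, with groups that did not overlap. The part of any of these marker lists in the values of GPRC5A and DHRS3 was not tested. In RNA of whole cultures, fewer cells of a type and less RNA per cell cannot be told apart.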

How the data were processed

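RNA of 6 HFL-1 samples was hybridised to PrimeView arrays. The deposited values are log2 signals that the authors computed by RMA (background correction, quantile normalization and a summary per probe set). Affymetrix Power Tools is also named in the submitters' processing notes, and neither tool's version is given in the sources used here. Of 39341 probe sets, 36091 have 1 gene symbol and are not controls. Probe sets with several symbols (1397) or none (1847) and the 73 controls were left out, except that of HYAL1, found by its values in a supplementary table of the study (tolerance 0.001). One probe set shared by ALDH1A3 and another gene was thus not used. A gene was its probe set of highest mean (9345 genes had several). Groups were compared over all 15277 genes in R 4.3.3 with limma 3.58.1 (empirical Bayes, prior degrees of freedom 3.25, Benjamini-Hochberg, threshold 0.05), and the fit was tested on simulated data. The number of arrays limits the precision. Sequences are from RefSeq (GRCh38.p14), and figures were drawn with Python 3.11.15 and matplotlib 3.10.9.

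The members and gene lists were chosen with earlier results of these data known. Named are all 9 members, pathway genes that passed and up to 2 more per role by smallest p, the GPRC5A paralogs, HYAL1, and the 5 genes most like GPRC5A. Alternatives tried were other probe set rules, a filter on the 30% of genes of lowest mean, 2 renewed normalizations, a trended and a robust prior variance, array weights, a block for replicate number, and leaving out each array in turn.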

Additional observations from a re-analysis of the deposited data

How the results depend on the processing

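GPRC5A kept its direction in all 16 alternatives and DHRS3 in all 16. Most of these could not turn it. Leaving out 1 array keeps the sign where groups do not overlap. The trended prior variances, the replicate block, the filter and the test of all probe sets leave the difference itself unchanged. The number of members called was 2 in each alternative except the replicate block, which called 0, and the fits without 1 array, which called 1 to 1, GPRC5A. The number of genes called, 253, became 727 with the probe set of lowest p, 553 with all probe sets tested, 673 without the 30% of lowest mean, 1024 with a trended and 1079 with a robust trended prior variance, 406 with array weights, 1 with the replicate block, and 15 to 52 without 1 array, which leaves fewer samples. The number of other pathway genes called, 1, became 2 with probe sets averaged, 4 with the probe set of lowest p, 2 without the 30% of lowest mean, 4 with a trended and 5 with a robust trended prior variance, 0 with the replicate block and 0 to 0 without 1 array. For the other settings the cause was not tested. RARB, ALDH1A3 and CYP26B1 fell below the 30% limit and have no value there. Whether the replicate numbers pair the arrays is not given. The deviations of same-numbered arrays correlated across genes at 0.0629, -0.0229 and 0.235, and HYAL1-labelled replicate 1 correlated best with control-labelled replicate 2 (0.161), so the numbers were not taken to pair them. With the replicate block the adjusted p was 0.0527 for GPRC5A, 0.112 for DHRS3 and 0.0945 for TGM2. Levels below the background probe sets limit RARB, ALDH1A3 and CYP26B1.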
